A study of Mus musculus with 16 samples.

Results

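Cd9, Cd81, Astl, Itpr1, Trpm7 and Cacna1h are genes of the egg surface and of calcium handling at fertilisation. They were taken by name as a list of 6 from the 25965 rows of the RNA table, and each is described by its RNA level in every library and by the DNA methylation of its start and body. Oocytes came from wild-type mice, labelled C57BL/6 and given as the substrain C57BL/6Babr in the methods, and were sorted by diameter as they grew. RNA-seq libraries were made in duplicate, lettered A and B, from small oocytes of 10–30 μm and from those of 40–45 μm, of 50–55 μm and of 60–65 μm, and 1 column gave fully grown germinal vesicle (GV) oocytes. Methylation was measured by reduced representation bisulphite sequencing (RRBS), which samples CpG-rich fragments, in 2 libraries of each class but the smallest, and by post-bisulphite adaptor tagging (PBAT), which samples the whole genome, in 1 library of 60–65 μm. Oocytes were released from ovaries with collagenase and trypsin, picked by hand and pooled. The RNA pools came from mice aged 5 to 7 days for 10–30 μm, 7 to 10 days for 40–45 μm, 10 to 15 days for 50–55 μm, 12 to 18 days for 60–65 μm and 20 to 21 days for GV oocytes, and those of growing oocytes held 841 to 1612 oocytes each. The methods text gives slightly different age ranges for some classes. Diameter and age move together in this design and cannot be told apart. In pooled cells a change in the number of expressing cells and a change in each cell cannot be told apart either. RNA levels here are shares of each library, and the paper states that the mRNA content of oocytes increases during growth. A lower share therefore need not mean less RNA per oocyte. Whether A and B came from separate animals is not stated, so that p-values measure only the spread between these pools.

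At fertilisation the sperm binds and fuses with the egg membrane, and the egg answers with repeated rises in calcium. CD9 and CD81 are tetraspanins, membrane proteins that gather partner proteins into patches, and eggs without CD9 rarely fuse with sperm. Astl encodes ovastacin, a protease stored in cortical granules that is released after fusion and cleaves the zona pellucida protein ZP2, so that further sperm do not bind. Itpr1 encodes the receptor through which inositol trisphosphate releases calcium from the endoplasmic reticulum. TRPM7, a channel joined to a kinase, and the T-type channel CaV3.2, encoded by Cacna1h, let calcium in across the plasma membrane and help to refill the stores. Growing oocytes make and store RNAs for later use. During the same weeks they acquire DNA methylation, mainly over the bodies of transcribed genes, while most CpG-rich starts stay free of it.

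In GRCm38 coordinates Cd9 lies on chromosome 6 from 125460266 to 125494791 on the minus strand, and Cd81 on chromosome 7 from 143052739 to 143067934 on the plus strand. Astl runs from 127338639 to 127357651 on chromosome 2, plus strand. Itpr1, by far the longest at 337992 bp, runs from 108213118 to 108551109 on chromosome 6, plus strand. Trpm7 lies on chromosome 2 from 126791565 to 126876230 and Cacna1h on chromosome 17 from 25374285 to 25433783, both on the minus strand.

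The sequences upstream of Cd9, Cd81 and Astl are shown because their CpG content differs and because each could be set beside the methylation calls. Each run covers the bases from 250 to 41 before the RefSeq start of the gene (GRCm38.p6), read 5′ to 3′ on the strand of the gene, with CpG dinucleotides in capitals. The positions are chr6:125494801-125495010 for Cd9 (minus strand), chr7:143052500-143052709 for Cd81 (plus strand) and chr2:127338389-127338598 for Astl (plus strand).
Cd9: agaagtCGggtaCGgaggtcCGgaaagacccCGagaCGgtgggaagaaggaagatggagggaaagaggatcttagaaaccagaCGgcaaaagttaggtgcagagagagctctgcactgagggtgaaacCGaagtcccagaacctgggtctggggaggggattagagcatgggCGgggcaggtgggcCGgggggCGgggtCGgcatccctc
Cd81: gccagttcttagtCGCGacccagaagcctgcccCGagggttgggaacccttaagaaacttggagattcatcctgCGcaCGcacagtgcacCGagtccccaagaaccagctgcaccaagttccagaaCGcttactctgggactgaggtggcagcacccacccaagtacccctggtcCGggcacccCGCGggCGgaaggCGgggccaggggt
Astl: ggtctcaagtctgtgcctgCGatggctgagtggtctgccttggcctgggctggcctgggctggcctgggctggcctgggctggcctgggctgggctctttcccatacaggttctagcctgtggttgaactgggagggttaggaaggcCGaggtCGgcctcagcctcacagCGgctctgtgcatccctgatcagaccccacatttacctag

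Over the whole 300-base windows, which reach 50 bases past the start, Cd9 held 18 CpGs, Cd81 held 23, Trpm7 held 35 and Astl held 5, where the median of 32851 RefSeq promoters was 7. Astl has a further RefSeq start within the gene, whose window held 1 CpG. RefSeq windows for Itpr1 and Cacna1h were not used here. Letters were searched on both strands. GGGCGG was found 2 times for Cd9 and 3 times for Cd81 and in neither Astl window nor that of Trpm7, and 35.7% of all promoters held it. CANNTG was found in the windows of Cd9 (3), Cd81 (1) and Trpm7 (3) and in that of the internal Astl start (3), and 72.3% of all promoters held it. CACGTG, a case of CANNTG, was found 2 times for Trpm7, against 7.15% of promoters. TATAAA was found 1 time for Cd81 and in no other of these windows (13.6% of promoters), and TAATTG in none of them (8% of promoters). In the PBAT library of 60–65 μm, 0 of 132 calls were methylated in the Cd9 window, 1 of 150 for Cd81, 3 of 150 for Trpm7 and 2 of 25 for Astl.

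RNA levels are given as RPKM, which divides the reads of a gene by its exon length and by the library size, and because the unit is per length the genes can be set in order. In growing oocytes of 60–65 μm Astl led with 164 ± 6.66 RPKM (SD, n = 2), followed by Cd9 with 24.4 ± 1.25, Itpr1 with 11.8 ± 0.560, Cacna1h with 6.06 ± 0.668, Trpm7 with 2.48 ± 0.0798 and Cd81 with 0.297 ± 0.0481. No pair of neighbours in this order overlapped at 40–45 μm or above, whereas at 10–30 μm Cacna1h, at 2.70 and 5.17 RPKM, overlapped Trpm7, at 3.07 and 3.36. Astl ranked 53 among the 10518 genes above the filter (at least 0.5 RPKM in 2 of 8 growing libraries) at 60–65 μm, and Cd81 ranked 10299. Lengths of exon are those that the deposited RPKM imply. All 6 genes passed the filter, but Cd81 did so only through the libraries of 10–30 and 40–45 μm. Hence its difference between classes was in part a condition of its being tested.

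**Figure D1:**
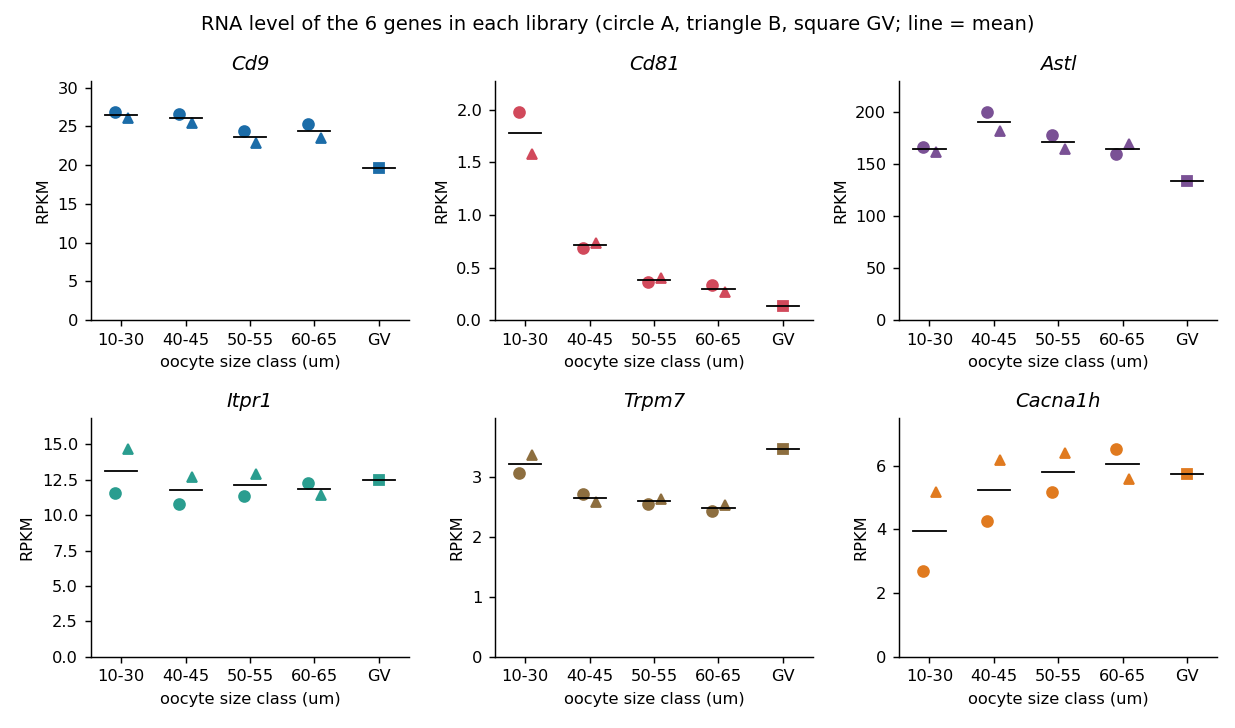
RPKM (vertical axes, each from 0) of the 6 genes in each RNA library by oocyte size class in μm (horizontal axes), with circles for libraries A, triangles for B, squares for GV and lines for class means. Cd81 steps down from 1.98 and 1.58 at 10–30 μm to 0.131 in GV oocytes, whereas Cd9 lies between 22.8 and 26.8 in all growing libraries.

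The libraries held 99.4 to 198.3 M reads (each M is 1000000), and the summed RPKM of 12 oocyte markers was 2526 to 3809.7. This sum was 3574–3614 at 10–30 μm, lower at 2726–2903 at 60–65 μm, and lowest at 2526 in GV oocytes. Markers of other ovarian cells were far lower. The 12 granulosa markers summed to 0.864–0.979 at 10–30 μm and 3.20–3.45 at 60–65 μm, with Inhba and Wt1 under 0.05 RPKM in every library. Gata4 and Inha, the ones that passed the filter, did so only through the classes of 50–55 and 60–65 μm, so that their rise was in part a condition of their being tested. The 7 markers of stroma and theca summed to 2.80–3.92 at 10–30 μm and 0.920–1.06 at 60–65 μm, with Lum under 0.05 everywhere. Likewise the 3 that passed the filter and fell (Col1a1, Col1a2 and Col3a1) reached 0.5 RPKM only at 10–30 μm and, for Col1a1, in library A of 40–45 μm. The 4 endothelial markers summed to 1.06–1.17 and 5.34–5.93, nearly all of it from Pecam1 (4.70 and 4.19 at 60–65 μm) and Tek, the ones that passed the filter, which both rose, with Cdh5 under 0.05 everywhere and Kdr at most 0.0372 in growing oocytes, and the 7 markers of blood and immune cells in the table to 0.306–0.462 and 0.405–0.651 (Ptprc and Cd52 under 0.05 everywhere).

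From 10–30 to 60–65 μm, 3 of the 6 genes passed the test (limma, adjusted p under 0.05), where 63.3% of the 10518 genes tested did. The genes that were lower in the larger class were Cd81 and Trpm7 (2 of 6, 31.8% of all genes), and Cacna1h alone was higher (1 of 6, 31.5% of all genes). The median difference over all genes was -0.0002 on the log2 scale. Differences are given as log2 of the scaled RPKM plus 0.1, with the larger class minus the smaller, and this scale understates changes of genes as low as Cd81.

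**Figure D2:**
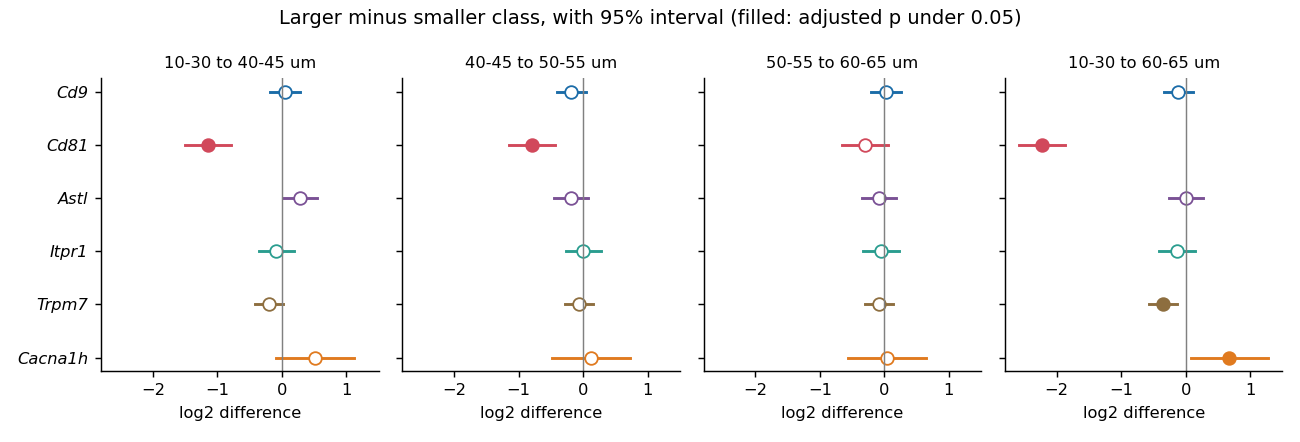
Differences between size classes of growing oocytes on the log2(RPKM + 0.1) scale (horizontal axes), as points with 95% intervals for each gene (rows), filled where the adjusted p was under 0.05. Cd81 is filled in every panel but that from 50–55 to 60–65 μm, and Trpm7 and Cacna1h only from 10–30 to 60–65 μm.

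Among the egg surface tetraspanins Cd81 fell, and Cd9 passed no test. Cd9 measured 26.8 and 26.1 RPKM at 10–30 μm, 26.6 and 25.5 at 40–45 μm, 24.4 and 22.8 at 50–55 μm, 25.3 and 23.5 at 60–65 μm and 19.6 in GV oocytes. The 10–30 and 60–65 μm libraries did not overlap, but the difference of -0.11 (95% interval -0.34 to 0.12, limma adjusted p = 0.346) did not pass the test.

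Cd81 measured 1.98 and 1.58 RPKM at 10–30 μm (446 and 569 reads), 0.689 and 0.736 at 40–45 μm (235 and 319 reads), 0.363 and 0.396 at 50–55 μm (97 and 139 reads), 0.331 and 0.263 at 60–65 μm (79 and 108 reads) and 0.131 in GV oocytes (59 reads). No growing class overlapped another, and GV lay below them all. From 10–30 to 60–65 μm Cd81 fell by 2.23 on the log2 scale (SE 0.16, limma adjusted p = 1.32e-05), which is 4.70-fold, and it passed the test in all 18 alternatives, with values from -2.59 to -1.09. Its steps were larger between the smaller classes, an order that was not tested. From 10–30 to 40–45 μm it was 2.20-fold (log2 -1.14, SE 0.16, adjusted p = 0.00252), and Cd81 was the 1 gene of the 6 called, where 23% of all genes were. From 40–45 to 50–55 μm it was 1.74-fold on the same scale (log2 -0.79, SE 0.16, adjusted p = 0.0226), again with Cd81 as the 1 gene called (8.72% of all genes). That second call was lost when either library of 40–45 μm (adjusted p = 0.0652 without A and 0.125 without B) or of 50–55 μm (0.180 without A and 0.0792 without B) was left out, although the difference stayed between -0.83 and -0.74. It was also lost with no filter on low values (log2 -0.81, adjusted p = 0.0534). In the 4 fits without a library the calls over all genes went from 917 to 543, 0, 0 and 257, in the same order.

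From 50–55 to 60–65 μm the difference of Cd81 was -0.30 (95% interval -0.66 to 0.06, adjusted p = 0.448). None of the 6 genes and 0 of 10518 genes (0%) passed limma's adjusted test in this last step, although 1441 had an unadjusted p under 0.05, and edgeR on recovered reads also called 0. None of the 6 was called either with a pseudocount of 1 or with the letter as a replicate block, where 8 and 240 genes were. From 40–45 to 60–65 μm, Cd81 (log2 -1.09, SE 0.16, adjusted p = 0.0015) was the 1 gene called, where 37.4% of all genes were. The summed markers of stroma and theca fell with Cd81 over the smaller classes, at 2.80–3.92 RPKM for 10–30 μm, 0.705–1.75 for 40–45 μm and 0.450–0.750 for 50–55 μm. They were higher again at 0.920–1.06 for 60–65 μm, where Cd81 was lowest among growing oocytes. In GV oocytes, where Cd81 was lowest of all, they were at 0.376, below every growing library. The part of these cells in the fall of Cd81 was not tested. The genes whose profile over the 9 columns was most like that of Cd81, among 8531 tested genes of at least 1 RPKM on average, were the potassium channel gene Kcnk1 (Pearson r = 0.99), the nuclear cap-binding gene Ncbp1 (r = 0.99) and the iron-sulphur assembly gene Nubp1 (r = 0.99), which are descriptions over columns that share size class. Kcnk1 went from 3.33 and 3.4 RPKM at 10–30 μm to 1.57 and 1.48 at 60–65 μm and 1.02 in GV oocytes.

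Astl, the cortical granule protease, was among the most abundant RNAs throughout. It measured 167 and 161 RPKM at 10–30 μm, 200 and 181 at 40–45 μm, 178 and 165 at 50–55 μm, 160 and 169 at 60–65 μm and 134 in GV oocytes. The libraries of 40–45 μm were above all others, but their difference of 0.28 from 10–30 μm (95% interval 0.02 to 0.55, limma adjusted p = 0.112) did not pass the test, and the classes of 10–30 and 60–65 μm overlapped and differed by 0.01 (95% interval -0.26 to 0.27, adjusted p = 0.973).

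Itpr1, the calcium release receptor, measured 11.6 and 14.7 RPKM at 10–30 μm, 10.8 and 12.7 at 40–45 μm, 11.3 and 12.9 at 50–55 μm, 12.2 and 11.4 at 60–65 μm and 12.5 in GV oocytes. The 4 growing classes overlapped, and the GV value lay within their range. The difference from 10–30 to 60–65 μm was -0.14 (95% interval -0.41 to 0.14, limma adjusted p = 0.349), and no step passed the test.

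Of the entry channels, Trpm7 was slightly lower and Cacna1h higher in larger growing oocytes. Trpm7 measured 3.07 and 3.36 RPKM at 10–30 μm, 2.72 and 2.59 at 40–45 μm, 2.55 and 2.63 at 50–55 μm, 2.43 and 2.54 at 60–65 μm and 3.47 in GV oocytes. The libraries of 10–30 μm were above all other growing ones, and the GV column was above them all. From 10–30 to 60–65 μm Trpm7 fell by 0.36 on the log2 scale (SE 0.10, limma adjusted p = 0.0108), or 1.28-fold, a call that was lost without library A of 60–65 μm (-0.31, adjusted p = 0.0859).

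Cacna1h measured 2.70 and 5.17 RPKM at 10–30 μm, 4.26 and 6.19 at 40–45 μm, 5.19 and 6.39 at 50–55 μm, 6.53 and 5.58 at 60–65 μm and 5.74 in GV oocytes. Library A was below B in the 3 smaller classes and above it at 60–65 μm, and the spread within 10–30 μm was larger than the steps between class means. The rise of 0.68 from 10–30 to 60–65 μm (SE 0.26, limma adjusted p = 0.0496), or 1.598-fold, only just passed the test and rested on library A of 10–30 μm, without which it was 0.25 (adjusted p = 0.340). It was called in 7 of 18 alternatives. The difference between A and B at 10–30 μm was -0.82 for Cacna1h, below that of all but 0.910% of the tested genes, and across genes the A minus B difference had a Spearman correlation with exon length of -0.37 at 10–30 μm, -0.15 at 40–45 μm, -0.18 at 50–55 μm and 0.15 at 60–65 μm, given as a description over 10495 genes of the same libraries. Itpr1, for which the table used 9848 bp of exon against 9763 bp for Cacna1h, had A below B in the same 3 classes, and Trpm7, with 11315 bp, had A above B at 40–45 μm. The part of this length relation in the Cacna1h result was not tested.

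GV oocytes have 1 column and no test. Pools A and B of GV oocytes are listed, and whether the column holds one of them or both is not given in the sources used here. In this column Cd81 was 2.18-fold lower than the mean of the 60–65 μm libraries after scaling, and it was the 1 gene of the 6 past 2-fold, where 1.26% of all genes were. Its 59 reads give a 95% Poisson interval of 0.0998 to 0.169 RPKM, for counting error only, and without library A of 60–65 μm the ratio was 1.94. The other ratios of GV to 60–65 μm were 0.833 for Cd9, 0.844 for Astl, 1.10 for Itpr1, 1.45 for Trpm7 and 0.984 for Cacna1h.

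The other genes of these processes did not share one direction. All counts are of genes that passed limma's test from 10–30 to 60–65 μm, to be read against the 31.5% of all genes that rose and the 31.8% that fell and against a median difference of -0.0002. Of 13 sperm-egg binding and tetraspanin partner genes, 8 passed the filter, 4 rose and 0 fell, with a median of 0.40. Juno, the sperm receptor of the egg (listed as Folr4), rose 3.65-fold (4.05 and 4.58 RPKM to 16.2 and 15.7), Igsf8, a partner of CD9 and CD81, rose 2.08-fold, and the integrin genes Itga6 and Itga9 rose 1.77-fold and 1.49-fold. Cd81 and its partner Igsf8 moved in opposite directions. However, Cd81 reached 0.5 RPKM only at 10–30 and 40–45 μm and Igsf8 only at 50–55 and 60–65 μm. These opposite directions were therefore in part a condition of both being tested.

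Of 16 genes of cortical granules and their exocytosis, 13 passed the filter, 4 rose and 3 fell, with a median of 0.07. The exocytosis formin Fmn2 rose 2.72-fold, the plasminogen activator Plat 1.88-fold, the small GTPase Rab27a 1.48-fold and the fusion ATPase Nsf 1.35-fold, and the fusion genes Vamp3 and Snap23 fell by 0.67 and 0.60 on the log2 scale and Rab3a fell by 0.45. Without library scaling 4 fell rather than 3.

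Of 19 genes of calcium release and store refilling, 15 passed the filter, 4 rose and 6 fell, with a median of -0.12. Itpr2, which encodes another inositol trisphosphate receptor, rose 2.24-fold, from 2.05 and 1.94 RPKM to 4.64 and 4.56 against 12.2 and 11.4 for Itpr1 in the largest class. The G-protein regulator Rgs2 rose 2.14-fold, the store calcium sensor Stim2 2.06-fold and the G-protein gene Gnaq 1.42-fold, while the phospholipase Plcb1 fell by 1.04 on the log2 scale, the chaperone genes Pdia3 and Hspa5 fell by 0.77 and 0.70, and Gna11 fell by 0.75.

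Of 26 genes of calcium entry and removal, 24 were in the table, 9 passed the filter, 4 rose and 2 fell, with a median of 0.31. The calcium pumps Atp2b4, Atp2b3 and Atp2b1 rose 4.46-fold, 2.46-fold and 1.37-fold, and the store-operated channel Orai1 rose 1.99-fold. The channel gene Trpv3 fell by 0.41 on the log2 scale. Of 19 genes of egg activation and zinc import, 12 passed the filter, 6 rose and 3 fell (4 without library scaling), with a median of 0.34. Zinc importer Slc39a10 rose 2.36-fold, the calcium-dependent kinase gene Camk2g 2.02-fold, the meiotic kinase Mos 1.86-fold and the meiotic arrest gene Fbxo43 1.55-fold, and the calcineurin genes Ppp3ca and Ppp3cb fell by 1.69 and 1.05 and calmodulin gene Calm3 by 0.98. Of 12 sperm-side genes, 11 were in the table and 3 passed the filter. Spam1 was higher at 60–65 μm (2.18 and 2.25 RPKM against 0.230 and 0.209), Zpbp was lower by 2.07 and Catsper2 by 0.53 on the log2 scale, and all 3 passed the test. Like Cd81, the genes Igsf8, Atp2b4, Spam1 and Zpbp reached 0.5 RPKM only in classes where they were high, so that their differences were in part a condition of their being tested: Atp2b4 did so only at 60–65 μm (0.755 and 0.560 RPKM, against 0.0568 and 0.0787 at 10–30 μm) and Zpbp only at 10–30 μm (0.540 and 0.506, against 0.0470 and 0.0468 at 60–65 μm).

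DNA methylation of the 6 genes was read in the PBAT library of 60–65 μm as the mean percent over CpG cytosines with at least 5 reads, with 95% Wilson intervals of the pooled calls, which cover counting error only. Within 1 kb of the start all 6 genes were low: 4.21% for Cd9 (60 cytosines), 3.82% for Cd81 (93), 3.76% for Astl (16), 5.33% for Itpr1 (50), 4.29% for Trpm7 (85) and 3.24% for Cacna1h (201), where the median of 19669 genes was 3.87%. At a minimum of 10 reads these values lay between 0 and 7.01%.

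The gene bodies, taken from 2 kb inside the start to the end, separated Cd81 from the others. Cd81 was at 7.78% (52 cytosines, pooled 7.58%, interval 5.18 to 10.9%). Astl was at 38.2% (74 cytosines, interval 36.2 to 43.9%), Cd9 at 47.3% (205, pooled 49.9%, interval 47.4 to 52.4%), Itpr1 at 55.9% (1167, interval 54.7 to 56.8%), Cacna1h at 59.8% (744, interval 57.6 to 60.1%) and Trpm7 at 64.2% (40, interval 59.5 to 70.4%). The interval of Cd81 lay below all others. The median was 50.6% over 8734 genes above the RNA filter, of which 2.29% were below Cd81, and among the 294 of these within 0.5 on the log2 scale of its RNA level at 60–65 μm the median was 35.2% and 5.10% were below Cd81. Of the same 8734 genes, 27.8% were below Astl and 83.1% below Trpm7, and the other 3 genes lay between these. Cd81 stood out less among all 17080 genes with a body value, filtered or not. Their median was 29.7%, and 20.012% of them were below Cd81. Taken over the whole gene, start included, Trpm7 was at 24.7% (119 cytosines), below all but Cd81 (5.51%), since most of its cytosines with enough reads lie in the first 2 kb. At a minimum of 10 reads Cd81 was at 2.50%, over only 4 cytosines. With 1 library, no spread between samples stands behind these values.

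**Figure D3:**
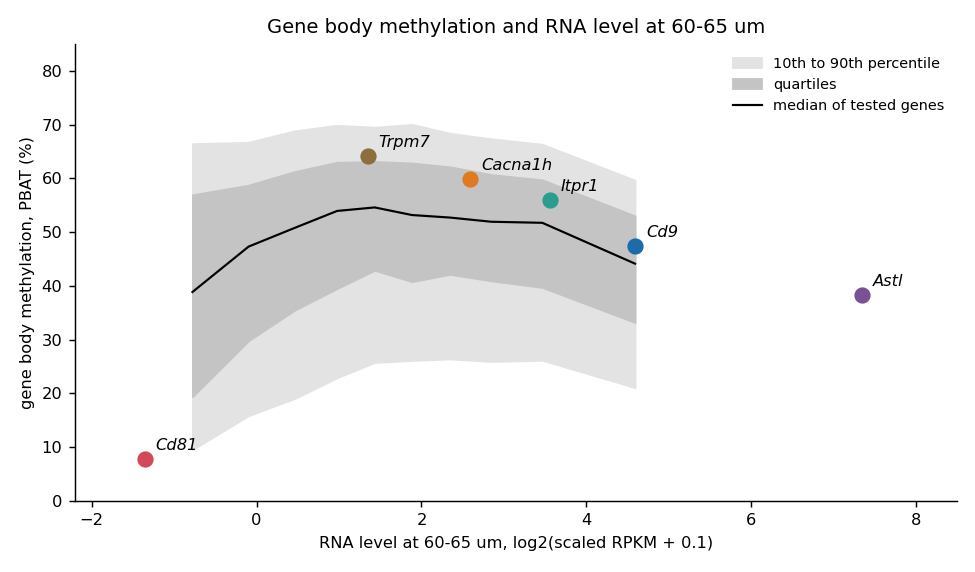
Gene body methylation in the PBAT library (vertical axis, percent) against RNA level at 60–65 μm (horizontal axis, log2 of scaled RPKM plus 0.1), with the median, quartiles and 10th to 90th percentiles of 8734 tested genes in 10 groups of RNA level. Cd81 lies at 7.78%, to the left of the shading, which begins at the median RNA level of the lowest group (-0.777). The 10th percentile of that group, which holds Cd81, was 9.53%. The other 5 genes lie between 38.2 and 64.2%.

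Along the genes, methylation set in at different distances from the start. Cacna1h was at 4.04% in the first 2 kb and at 71.1% from 2 to 5 kb (16 cytosines), and its level dropped to between 23.7 and 48.4% from 17850 to 26775 bp before returning to 66.0%. Cd9 was at 5.19% in the first 2 kb, 25% from 2 to 5 kb, 19.96% from 5 to 10 kb and 51.1% beyond 10 kb, with a drop to 22.3 and 21.7% from 15537 to 18989 bp. Astl was at 8.33% in the first 2 kb (4 cytosines), 19.3% from 2 to 5 kb and 46.8% from 5 to 10 kb.

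Itpr1 was at 4.07% in the first 2 kb, 8.13% from 2 to 5 kb (7 cytosines), 19.8% from 5 to 10 kb (6 cytosines) and 56.4% beyond. That last mean was not even along the gene. It was at 37.9% from 16900 to 33799 bp, 23.8% from there to 50699 bp and 63.5% from there to 67598 bp. A later drop to 30.4 and 35.5% lay between 84498 and 118297 bp. Trpm7 had no cytosine with enough reads between 2 and 10 kb from its start, and was at 62.9% in the bin that ends at 12700 bp (10 cytosines). In Cd81 no stretch stood out, with 4.08% in the first 2 kb, 4% from 2 to 5 kb (5 cytosines), 7.48% from 5 to 10 kb and 9.23% from there to the end. Of its 52 body cytosines 47 (90.4%) were at 0 to 20%. This share was 32.4% for Astl, 25.4% for Cd9, 18.3% for Itpr1, 12.5% for Cacna1h and 7.5% for Trpm7. Methylation ended near the 3′ end of most of these genes. The 5 kb downstream was at 3.99% for Cd9, 5.57% for Cacna1h, 10.7% for Astl (9 cytosines) and 11.4% for Trpm7, but at 60.1% for Itpr1 (7 cytosines). Around Cd81 the 20 kb upstream (5.64%) and downstream (8.15%) were as low as its body, as were the 20 kb either side of Cacna1h (5.94% and 6.29%), whose body was methylated.

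**Figure D4:**
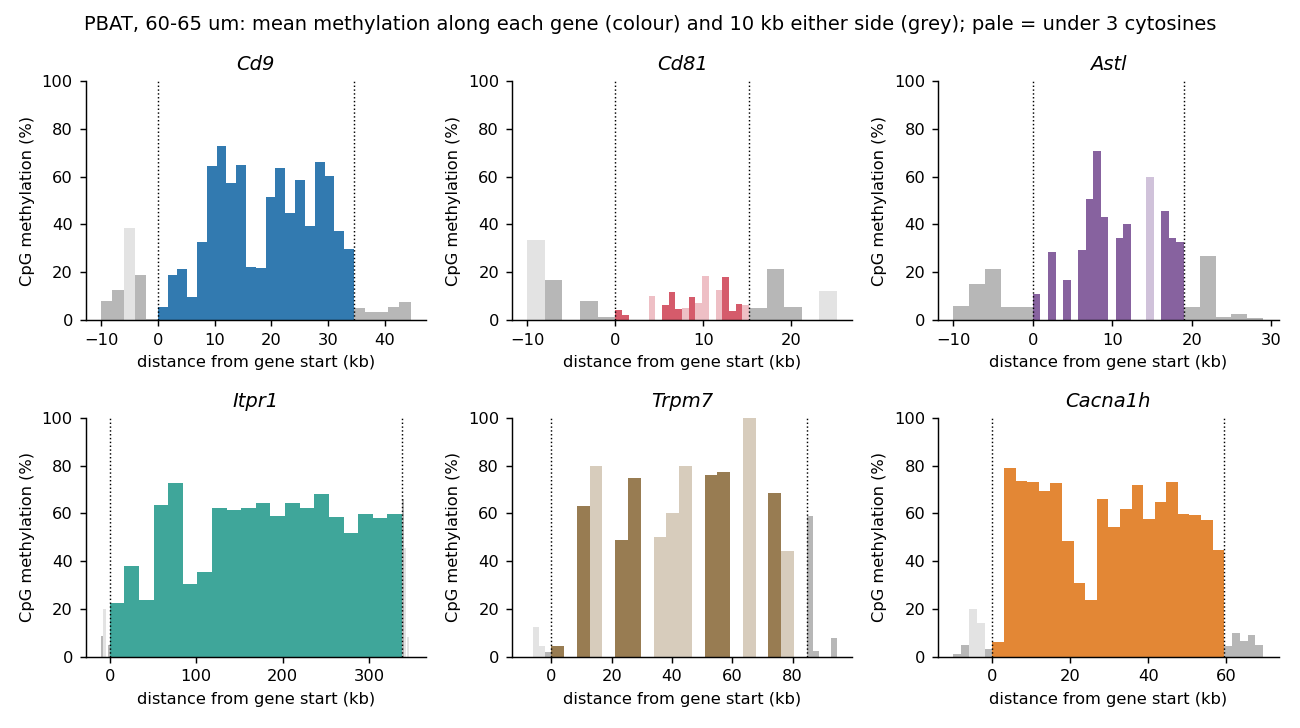
Mean CpG methylation in percent (vertical axes) along each gene in the PBAT library, in 20 equal bins from start to end (coloured, between dotted lines) and in 2-kb bins for 10 kb either side (grey), against distance from the start in kb, with bins of under 3 cytosines pale and empty bins without data. Cacna1h rises within 5 kb of its start, Cd9 and Itpr1 later, and Cd81 stays at or under 18.3% in every bin of the gene.

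The RRBS libraries followed the same genes from 40–45 to 60–65 μm at cytosines with at least 5 reads in all 6 libraries. The Itpr1 body (31 cytosines) was at 3.57% (library A) and 2.86% (B) in oocytes of 40–45 μm, then at 21.8 and 18.95% in those of 50–55 μm, and last at 40.4 and 40.99% in those of 60–65 μm. The Cacna1h body (20 cytosines) was at 4.87 and 0.823%, then 22.2 and 11.6%, then 39.1 and 49.0%. The Astl body (9 cytosines) was at 1.77 and 4.45%, then 14.6 and 19.7%, then 39.5 and 35.5%, while its mean RNA level in the same classes was 190, 171 and 164 RPKM.

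The Cd9 body (7 cytosines) was at 1.05 and 0.778%, then 6.16 and 14.4%, then 16.8 and 20.6%. In all 4 of these bodies both libraries of each class were above both of the class before, as they were in 74.4% of the 3313 tested genes with at least 5 shared cytosines. For Cd9 this held only at the shared cytosines: at all that each library covered (8 to 24), its body was at 5.40 and 25.1% at 50–55 μm and 12.2 and 15.7% at 60–65 μm, which overlap. The median over those genes was 2.23% in A and 1.59% in B for 40–45 μm, 13.6 and 15.0% for 50–55 μm, then 30.9 and 32.0% for 60–65 μm, so that at 60–65 μm and at shared cytosines Itpr1, Cacna1h and Astl were above it and Cd9 below. At all cytosines that each library covered (13 and 11), the Astl body was lower, at 28.8 and 29.1% at 60–65 μm. No median over genes is given for such cytosines. With 2 libraries in each class no test of single bodies was made.

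The Cd81 body, with 3 shared cytosines, was at 0% in 5 libraries and at 5.74% in library B of 60–65 μm. The Trpm7 body had 1 shared cytosine, between 0 and 18.5%, which gives no level for the gene. The starts stayed low in all classes where they had more than 10 shared cytosines, at 0 to 0.620% for Cd9 (11), 0.0320 to 0.803% for Itpr1 (21), 0.0394 to 2.32% for Trpm7 (28) and 0.290 to 0.881% for Cacna1h (39). Cd81, with 6 shared cytosines at its start, was at 6.67% in library B of 40–45 μm and at 0 to 1.04% in the other 5 libraries.

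**Figure D5:**
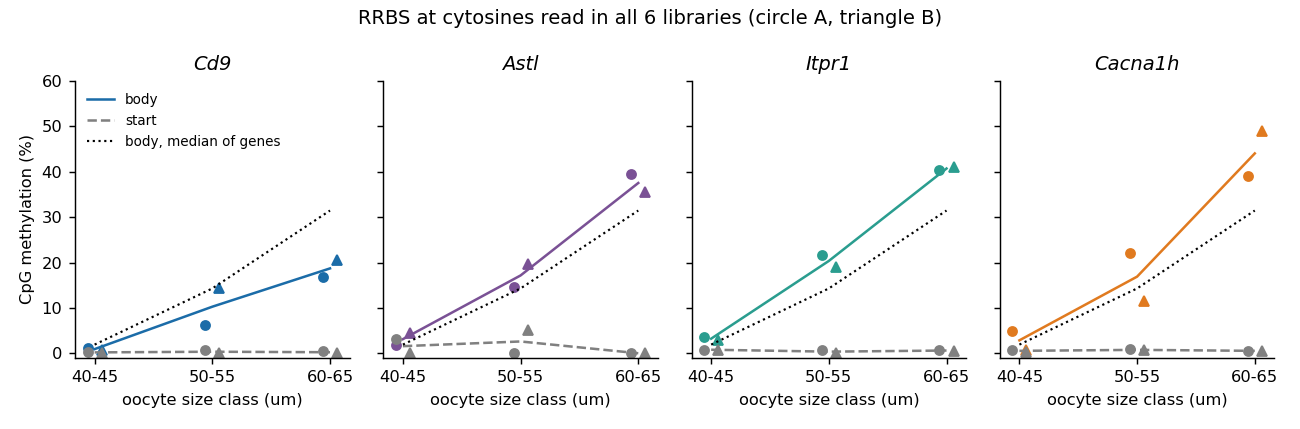
RRBS methylation in percent (vertical axes) by oocyte size class in μm (horizontal axes) at cytosines read in all 6 libraries, for bodies (coloured) and starts (grey, dashed), with circles for libraries A, triangles for B, lines for class means, and the median body of 3313 tested genes dotted. The 4 bodies rise from at most 4.87% at 40–45 μm to between 16.8 and 49.0% at 60–65 μm, while the starts of the same 4 genes stay at or under 5.19%.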

How the data were processed

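RNA-seq, RRBS and PBAT files were used as deposited. For RNA, the authors trimmed reads with Trim Galore 0.2.8 and aligned them to GRCm38 with TopHat2 2.0.9 and deposited RPKM per gene. The methods name Cufflinks and SeqMonk for expression and analysis, but which of them made this table is not stated. For methylation, the authors trimmed with Trim Galore 0.3.5, aligned with Bismark (0.14.0 for RRBS, 0.10.0 for PBAT) and deposited the percent methylated and the counts of methylated and unmethylated calls per CpG cytosine, strands apart, with duplicates removed from PBAT but not stated to be removed from RRBS, so that intervals on RRBS would be too narrow. RNA libraries were strand-specific.

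RPKM steps gave whole reads for 99.99% of tested genes (within 0.02 reads), from which depths and read counts were recovered. The table named for read counts holds RPKM, and tests fitted this unit: limma 3.58.1 (R 4.3.3) on log2(RPKM + 0.1) with a variance trend, 1 fit over 8 growing libraries, Benjamini-Hochberg over 10518 genes of at least 0.5 RPKM in 2 libraries. Libraries were first scaled by a mean of ratios trimmed by 30% at each end and by 5% by level (factors 0.950 to 1.05). edgeR 4.0.16 on recovered reads was added after seeing the data. Scripts were tested on simulated data. Methylation used cytosines with at least 5 reads and was computed in Python 3.11.15.

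The 6 genes, the lists and the markers were chosen with earlier results of these data known, and no p was adjusted over a list alone. From each list, the genes named were those past the threshold from 10–30 to 60–65 μm, at most 4 rises and 4 falls by size, except 1 gene that is not reported here; likeness was given for genes whose class means spanned at least 1 on the log2 scale. Alternatives were library scaling, pseudocount, filter, fit, replicate block, left-out libraries, coverage minimum and windows.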

Additional observations from a re-analysis of the deposited data

How the results depend on the processing

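Of the 6 genes, the number called from 10–30 to 60–65 μm was 3, and 1 to 3 when libraries were left out in turn, with 1 left without library A of 60–65 μm, where calls over all genes also went from 6661 to 4814. From 10–30 to 40–45 μm it was 1 to 2, where Cacna1h was added without library B of 10–30 μm, and from 40–45 to 50–55 μm it was 0 to 1, where calls over all genes went from 917 to between 0 and 1624. The call of Cd81 in that last step was also lost, leaving 0, with no filter on low values, where 20052 genes were tested (adjusted p = 0.0534). Where a left-out library leaves 1 in its class, that library is assumed to vary like the others. Astl, which was not called, turned from 0.01 to -0.0029 with a filter of 1 RPKM, and lay between -0.084 and 0.066 when libraries were left out. The number of genes past 2-fold in GV oocytes was 0 to 1.

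The A minus B differences correlated at 0.60, 0.59 and 0.67 among the classes of 10–30, 40–45 and 50–55 μm but at -0.23, -0.03 and 0.11 with that of 60–65 μm, so that A and B shared a difference in 3 classes but were not taken as pairs over all 4. With the letter as a replicate block the number called was 3 from 10–30 to 60–65 μm, 1 from 10–30 to 40–45, 40–45 to 50–55 and 40–45 to 60–65 μm, and 0 from 50–55 to 60–65 μm, with the same genes called, while over all genes the last step went from 0 to 240 calls and the whole span from 6661 to 7280. A pseudocount of 1 gave 8 calls over all genes in the last step.

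The median of the 6 gene bodies in PBAT was 51.6%, and 47.7% at a minimum of 1 read, 56.0% at 10 reads and 38.2% for whole genes, which take in the unmethylated starts. That of the starts was 4.02%, and 2.16% at 10 reads. The median of the bodies of Cd9, Astl, Itpr1 and Cacna1h in RRBS, at all cytosines of each library, was 2.18% at 40–45 μm (4.86% at 1 read), 18.6% at 50–55 μm (29.6% at 1 read, and 17.6 to 22.2% with 1 library left out) and 36.3% at 60–65 μm (37.3% at 1 read, 35.6% at 10 reads). The cause of these shifts was not tested. Depth limits Cd81 in the largest oocytes, with 59 to 108 reads, and the bodies of Cd81 and Trpm7 in RRBS, with 3 and 1 shared cytosines.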
